A study of Mus musculus with 22 samples.

Results

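The genes described here are 53 axon guidance ligands and receptors: the Slits and their Robo receptors, the netrins and their receptors, the Eph receptors and ephrins, and the class 3 semaphorins with the neuropilins and plexins. They were taken as a fixed list of gene names. Their CpG cytosines were included where they lay within a RefSeq gene body, or within 2 kb of a transcription start site (TSS), and were covered by at least 10 reads in all 22 samples. This gave 6088 of the 1140639 such positions in the genome, of which 3768 lay in promoters (within 2 kb of a TSS) and 2320 in gene bodies outside promoters. All 53 genes held at least 1 position, between 8 and 356 per gene with a median of 104, and 324 of the positions also lay in another gene.

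DNA methylation was measured by enhanced reduced representation bisulfite sequencing (ERRBS), which reads CpG-rich fragments and scores each cytosine by the percent of reads in which it stayed unconverted. PyMT mice were F1 females heterozygous for the polyoma middle T antigen under the MMTV promoter, which drives the transgene mainly in mammary epithelium. Their fathers were transgenic FVB/N males and their mothers FVB females. Age-matched FVB females without the transgene were the controls, so both groups had an FVB background. PyMT tissue was collected as hyperplasia at week 6 (2 samples), adenoma/mammary intraepithelial neoplasia (MIN) at week 8 (3 samples), early carcinoma at week 10 (3 samples) and late carcinoma at week 12 (2 samples), each with 3 FVB samples. The study took bulk tumor or gland and removed 2 outliers. Because the tissue was bulk, a change in the share of a cell type and a change within cells cannot be told apart in any value that follows, and stage and age are the same variable in PyMT mice.

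Axon guidance proteins steer growing axons by attracting or repelling the growth cone, and most of them are used again outside the nervous system. Slits repel cells that carry Robo receptors, netrins attract through Dcc or neogenin and repel through Unc5 receptors, ephrins and Eph receptors signal both ways between touching cells, and class 3 semaphorins act on neuropilins that are paired with plexins. In the mammary gland, netrin-1 with neogenin and Slit with Robo help to hold the layers of the growing duct together.

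Methylation levels are given in percent, and differences are PyMT minus FVB in percentage points. The stretches that differed most were short runs of CpGs inside genes. They were taken as blocks of at least 3 positions, with gaps of at most 100 bases and a span of at most 300 bases, and the first 6 are shown because they held the largest differences outside untranslated exons. The other 3 were chosen after their values were seen, as the block with the largest gain (Ntn1) and the blocks whose gain grew with stage (Efnb3, Slit3). Sequences are the forward strand of the RefSeq GRCm38 (mm10) genome, and capitals mark the CpGs that were measured. A single capital G at a start is the second base of a CpG whose C lies just outside.

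Epha4, intron 5 of 17, chr1:77412350-77412435: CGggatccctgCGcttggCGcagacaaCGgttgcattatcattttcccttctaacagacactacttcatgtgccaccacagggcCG
Nrp2, coding exon 12 of 16, chr1:62771753-62771798: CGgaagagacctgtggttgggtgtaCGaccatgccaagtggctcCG
Epha2, coding exon 16 of 17 and the intron beside it, chr4:141324098-141324243: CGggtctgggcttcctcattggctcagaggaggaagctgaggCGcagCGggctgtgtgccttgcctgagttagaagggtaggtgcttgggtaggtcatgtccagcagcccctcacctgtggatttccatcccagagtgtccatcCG
Epha4, intron 12 of 17, chr1:77383176-77383327: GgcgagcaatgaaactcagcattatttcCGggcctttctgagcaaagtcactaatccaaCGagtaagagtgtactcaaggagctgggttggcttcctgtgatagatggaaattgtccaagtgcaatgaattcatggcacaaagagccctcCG
Plxnc1, intron 14 of 30, chr10:94842446-94842529: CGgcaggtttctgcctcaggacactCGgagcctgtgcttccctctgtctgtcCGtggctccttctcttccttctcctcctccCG
Unc5b, intron 1 of 16, chr10:60791151-60791214: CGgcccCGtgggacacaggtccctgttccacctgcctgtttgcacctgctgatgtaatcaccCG
Ntn1, intron 2 of 6, chr11:68290730-68290861: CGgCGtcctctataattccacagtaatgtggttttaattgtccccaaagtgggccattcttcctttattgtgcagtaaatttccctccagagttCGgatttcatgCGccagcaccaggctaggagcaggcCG
Efnb3, upstream of the TSS, chr11:69560344-69560379: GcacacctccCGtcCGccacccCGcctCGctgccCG
Slit3, upstream of the TSS, chr11:35121129-35121352: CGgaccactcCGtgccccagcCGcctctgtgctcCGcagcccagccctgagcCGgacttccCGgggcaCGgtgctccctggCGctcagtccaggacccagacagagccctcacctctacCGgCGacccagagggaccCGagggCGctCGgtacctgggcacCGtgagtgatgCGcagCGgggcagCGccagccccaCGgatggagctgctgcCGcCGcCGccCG

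The samples held 1314077 to 1435757 positions each at a mean coverage of 60.2 to 79.2 reads, and coverage of the axon guidance positions was 61.5 to 85.6 reads in PyMT and 65.4 to 81.4 in FVB. The percent of reads called methylated on the mitochondrial genome, used here as a floor for incomplete conversion, was 0.179 to 0.276 in PyMT and 0.172 to 0.242 in FVB. The share of a sample's reads that fell on each gene was also similar in PyMT and FVB, with a median PyMT to FVB ratio of 0.999, a lowest of 0.873 at Dcc and a highest of 1.10 at Ntn5. Other cell types were followed by the promoters of marker genes. All 9 luminal epithelial promoters tested were lower in PyMT, and their mean level was 3.44% to 5.20% in PyMT against 8.95% to 11.8% in FVB samples. The adipocyte markers, with 1 higher and 2 lower of 5, had a mean of 33.7% to 40.1% in PyMT against 40.8% to 47.0% in FVB. The endothelial markers, with 3 higher and 2 lower of 5, stood at 32.1% to 35.8% against 23.7% to 28.9%, and the 2 leukocyte promoters, both higher, at 36.8% to 44.6% against 33.1% to 38.1%. Of 4 fibroblast promoters 2 were higher, and their mean stood at 4.87% to 7.97% against 4.69% to 7.03%. The part of these shifts in the results on axon guidance genes was not tested.

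The first comparison asked at which single cytosines PyMT glands differed from controls of the same age. A position was called a differentially methylated cytosine (DMC) when a logistic likelihood ratio test of its methylated and unmethylated reads gave a Benjamini-Hochberg q under 0.01 over all 1140639 positions and the levels differed by at least 10 points. Losses outnumbered gains among axon guidance genes at every stage. At hyperplasia 129 positions were higher and 409 lower in PyMT, where 2.62% and 6.01% of all positions were called. At adenoma/MIN 175 were higher and 493 lower, against 3.20% and 7.10% of all positions. At early carcinoma 223 were higher and 544 lower, against 4.39% and 8.42%. At late carcinoma 205 were higher and 616 lower, against 4.44% and 8.53%. The positions called at all 4 stages were 44 higher (0.723% of the axon guidance positions) and 236 lower (3.88%), where 1.05% and 3.27% of all positions were called. These shares lie near the background. Most of the lasting losses lay in gene bodies, with 214 of the 236, against 22 in promoters. The lasting gains were also mostly in gene bodies (33, against 11 in promoters).

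The calls were unevenly spread over the genes. Ephb2, an Eph receptor for B-class ephrins, held the most positions called at any stage (135 of 356), followed by the secreted repellent Slit3 (105 of 209), the netrin receptor Unc5a (82 of 287) and Slit1 (81 of 171). By family, positions called at all 4 stages were 5 higher and 57 lower of 698 for Slits and Robos, 12 and 51 of 1410 for netrins and their receptors, 15 and 86 of 2385 for Ephs and ephrins, and 12 and 42 of 1595 for semaphorins, neuropilins and plexins. The families differed in their number of gene body positions, in this order 421, 589, 857 and 453. Of those, 13.3%, 8.32%, 8.17% and 8.61% were lower at all 4 stages. Slit1 alone held 21 of the 57 Slit and Robo losses. Some genes went the other way, among them Efnb3, a transmembrane ephrin, and Ntn3, a netrin. Efnb3 had 31 of its 47 positions called higher at late carcinoma, and Ntn3 had 13 of 99, with none lower at that stage in either gene. Sema3f had 16 positions higher and 1 lower at late carcinoma, and Ntn1 had 17 higher and 5 lower. By contrast 6 genes held no DMC at any stage: Neo1 (188 positions), the gene of the netrin receptor neogenin, Epha1 (32), Efna4 (24), Sema3c (51), Sema3e (17) and Nrp1 (44). Their positions lay mostly in promoters. Sema3c had 4 gene body positions, Nrp1 had 8 and the others had none, whereas Ephb2 had 198. At late carcinoma 2.10% of all axon guidance promoter positions were called higher and 0.902% lower, against 5.43% and 25.1% in gene bodies. The share of all genes without a DMC was not counted. The test treats reads as independent, and the chi-square between replicate samples averaged 1.83 to 3.51 at a position where read sampling alone gives about 1. Without PyMT replicate 1 the calls at hyperplasia were 73 higher and 270 lower. With a correction for overdispersion they dropped to 44 higher and 164 lower at hyperplasia and to 118 and 359 at late carcinoma.

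The direction of the mean difference changed with distance from the TSS. Of the promoter positions 98.2% stood below 20% methylation in controls, whereas in gene bodies 43.3% stood above 80% and 37.0% between 20% and 80%. Within 500 bases upstream of a TSS the mean level was 0.520% in FVB and 0.986% in PyMT, and within 500 bases downstream it was 0.667% and 1.09%. Efnb3 carried a large part of both gains, since all its 40 promoter positions lay here and were on average 12.5 points higher in PyMT. Farther upstream the mean difference over the genes turned to −1.20 points at 500 to 1000 bases (206 positions) and −1.34 points at 1000 to 2000 bases (124 positions). Few positions carried these means: 15 and 13 were more than 5 points lower, and 0 and 8 more than 5 points higher. Much of both means came from Ephb3, where differences at single positions reached −49.6 points. Inside the gene the mean difference over the genes was −1.83 points at 5 to 20 kb into the gene, −4.36 points at 20 to 100 kb and −9.04 points beyond 100 kb, where FVB stood at 75.1% and PyMT at 66.1% over 681 positions of 23 genes. Beyond 100 kb the difference was −6.64 points at week 6 and −11.8 points at week 12. These means run over positions that share genes and are a description without a test. Among gene body positions above 80% in controls, 11.4% were called lower at hyperplasia and 26.0% at late carcinoma, against 9.97% and 19.0% of all positions in the genome with that control level.

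**Figure D1:**
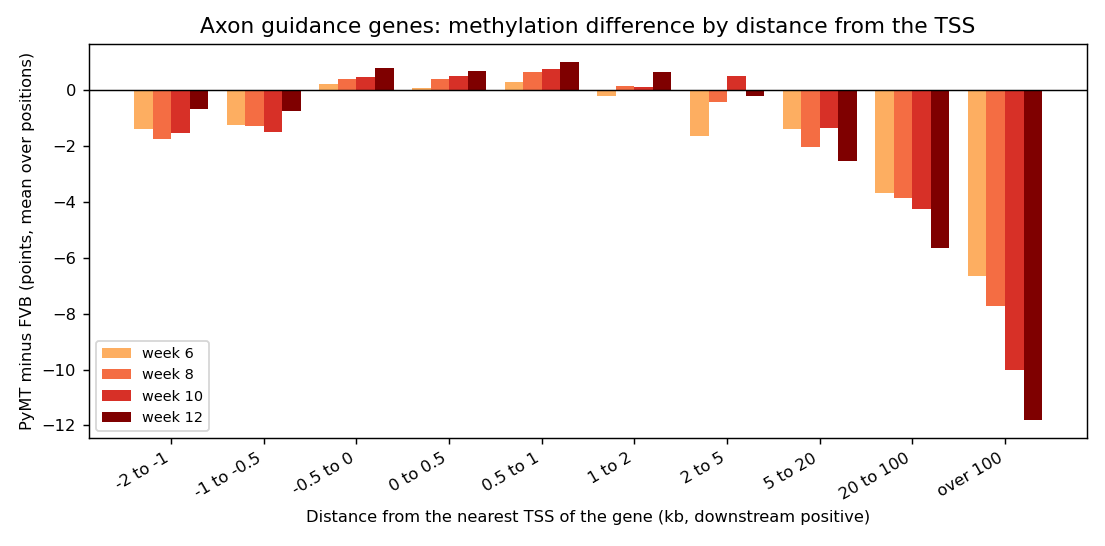
Mean PyMT minus FVB difference in percentage points over the CpG positions of the 53 genes, in bins of distance (kb) from the nearest TSS of the gene, with a bar for each week. Bars are small, above 0 from 500 bases upstream to 1 kb downstream of the TSS and below 0 farther upstream, and reach −11.8 points at week 12 beyond 100 kb. Efnb3 carries a large part of the bars within 500 bases of the TSS, and Ephb3 much of those farther upstream.

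To compare whole promoters with the mouse as the unit, the level of each promoter was the mean over its positions in each sample, and PyMT was compared with FVB in limma over the 4 weeks, with Benjamini-Hochberg adjustment over 16407 promoters and a threshold of 0.05. Nothing in the labels ties samples to separate litters or batches, so p-values measure the spread between these samples. Of 52 axon guidance promoters tested (Sema3g had too few positions) 24 were higher in PyMT (46.2%) and 9 were lower (17.3%). Among all promoters 17.0% were higher and 17.0% lower. The median difference was 0.286 points over the axon guidance promoters and −0.00815 points over all. Most of the gains were small in absolute size. In 27 of the 52 promoters FVB stood below 1%, and 16 of the 33 that passed differed by less than 1 point. Only 3 promoters passed with a difference of at least 5 points: Ntn5, Efnb3 and Sema3b. Axon guidance promoters also held more positions (median 54.5 against 38.0 over all promoters), which steadies their means, and the part of this in the counts was not tested.

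Every PyMT sample lay above every FVB sample at 10 of these promoters (19.2%), where 4.51% of all promoters did so, and below at 3 (5.77%), where 5.35% did. The number of promoters that were higher was 6 at hyperplasia, 13 at adenoma/MIN, 15 at early carcinoma and 20 at late carcinoma (limma, adjusted p under 0.05), and among all promoters 2.82%, 8.75%, 11.6% and 12.5% were higher at these stages. The number that were lower was 4, 4, 7 and 5, where 5.85%, 8.51%, 10.6% and 9.45% of all promoters were lower. The counts at single weeks rest on 2 or 3 PyMT samples and moved with single libraries. At hyperplasia the 6 higher promoters became 0 without PyMT replicate 1 or FVB replicate 3 and 1 without FVB replicate 1 or 2, and the 4 lower became 2 without either PyMT replicate. At adenoma/MIN they became 8 higher and 2 lower without PyMT replicate 3. At late carcinoma the 5 lower became 2 without PyMT replicate 1 and 3 without PyMT or FVB replicate 3. The width of the window mattered. With 500 bases on each side of the TSS 15 of 50 promoters were higher and 3 lower, against 13.3% and 6.75% of all promoters in that window. With 2 kb upstream alone 8 of 39 were higher and 6 lower, against 12.2% and 11.3%.

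**Figure D2:**
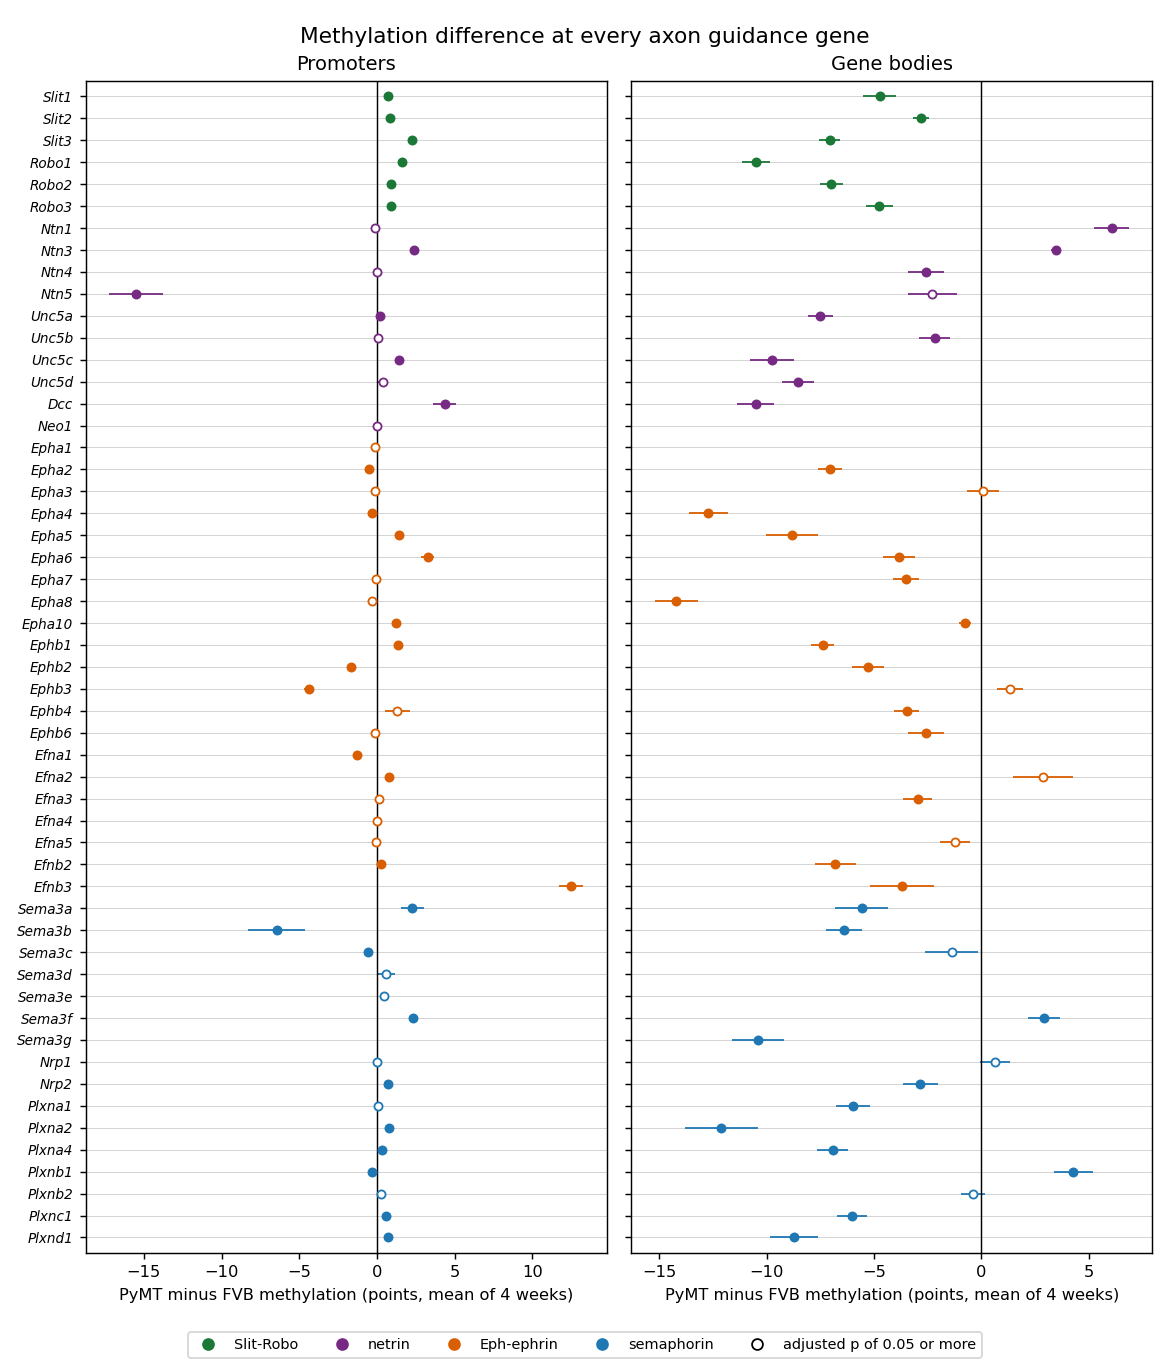
PyMT minus FVB methylation difference (percentage points, mean of the 4 weeks) for the promoter (left) and gene body (right) of each gene, with bars for the standard error, colors for the family and open points for an adjusted p of 0.05 or more. Promoter points cluster near 0 apart from Ntn5 (−15.5) and Efnb3 (12.5), whereas most gene body points lie to the left of 0, down to −14.2 at Epha8.

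The Slit ligands and Robo receptors gained promoter methylation together: all 6 promoters were higher in PyMT (limma, adjusted p under 0.05), by 0.707 to 2.24 points, where 17.0% of all promoters were higher, although Slit1 turned lower once predicted transcripts were added, and Slit2 (−0.0289 points within 500 bases of the TSS) and Robo3 (−0.626 points in the 2 kb upstream) turned lower, without passing, in other windows. The Slit3 promoter (gene at chr11:35121456-35708507, 48 positions) ranged from 1.74% to 4.70% in PyMT with a median of 3.08%, and from 0.503% to 1.47% in FVB with a median of 0.825%. By week the PyMT samples stood at 1.74% and 1.77% at hyperplasia, at 2.65%, 2.91% and 2.83% at adenoma/MIN, at 3.26%, 3.28% and 3.59% at early carcinoma and at 4.70% and 4.38% at late carcinoma. No PyMT sample overlapped any control, and no 2 stages overlapped. The difference was 2.24 points (SE 0.128, limma adjusted p = 5.16e-10). It was spread over the promoter. In the block upstream of the TSS shown above 27 positions averaged 3.09% ± 0.979 in PyMT (SD, n = 10) and 0.704% ± 0.166 in FVB (SD, n = 12), a gain of 2.42 points, and the other 21 positions gained 2.01 points, from 1.10% ± 0.628 to 3.14% ± 1.29. Only 0 to 2 single positions of this promoter were called as DMCs at each stage, because few differed by 10 points, while 16 were higher in PyMT at every week.

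Robo1, which encodes a Slit receptor, had a promoter level of 0.993% to 2.95% in PyMT (median 2.10%) and 0.263% to 0.678% in FVB (median 0.416%), with no overlap. The difference was 1.58 points (SE 0.135, limma adjusted p = 5.29e-08). At Slit2, which encodes another Slit ligand, PyMT samples ran from 1.09% to 3.56% with a median of 2.29% and FVB samples from 0.789% to 2.44% with a median of 1.51%. The groups overlapped, and the difference of 0.833 points (limma adjusted p = 0.0013) was −0.00796 points at week 6 and 1.97 at week 12. It did not pass within 500 bases of the TSS (−0.0289 points, adjusted p = 0.909). The Slit1 promoter was 0.707 points higher (adjusted p = 0.0182) but 1.03 points lower (difference −1.03, adjusted p = 0.00796) when predicted transcripts with their own TSS were added, so that its direction depends on which start sites count.

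Among netrins and their receptors 4 of 10 promoters were higher and 1 was lower. Ntn5 (chr7:45684022-45694556), a netrin gene, had the most methylated promoter of the list in controls and rested on 3 positions. It stood at 59.9% to 72.7% in PyMT with a median of 68.5%, and at 75.9% to 87.6% in FVB with a median of 84.5%. All PyMT samples were below all controls, by 15.5 points on average (difference −15.5, SE 1.72, limma adjusted p = 1.13e-06), and the differences by week were −14.9, −13.2, −16.5 and −17.6 points. The Ntn3 promoter (chr17:24203831-24209387, 42 positions) went up instead, from 1.90% to 3.71% in FVB (median 2.76%) to 3.60% to 7.19% in PyMT (median 5.37%), with slight overlap and a difference of 2.40 points (SE 0.224, limma adjusted p = 1.54e-07). Dcc, the attractive netrin receptor, had 8 promoter positions at 3.03% to 10.3% in PyMT (median 5.50%) and 0.736% to 2.85% in FVB (median 1.36%), with no overlap and a difference of 4.35 points (adjusted p = 0.000107). Unc5c (1.43 points) and Unc5a (0.182 points), which encode repulsive netrin receptors, were also higher. Within 500 bases of the TSS neither passed (0.151 points at Unc5c and 0.194 at Unc5a). In the 2 kb upstream Unc5a passed (0.536 points, limma adjusted p = 0.0176) and Unc5c did not (0.137 points, adjusted p = 0.496). Over the whole promoter Ntn1, Ntn4, Unc5b, Unc5d and Neo1 differed by −0.146 to 0.398 points and did not pass.

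**Figure D3:**
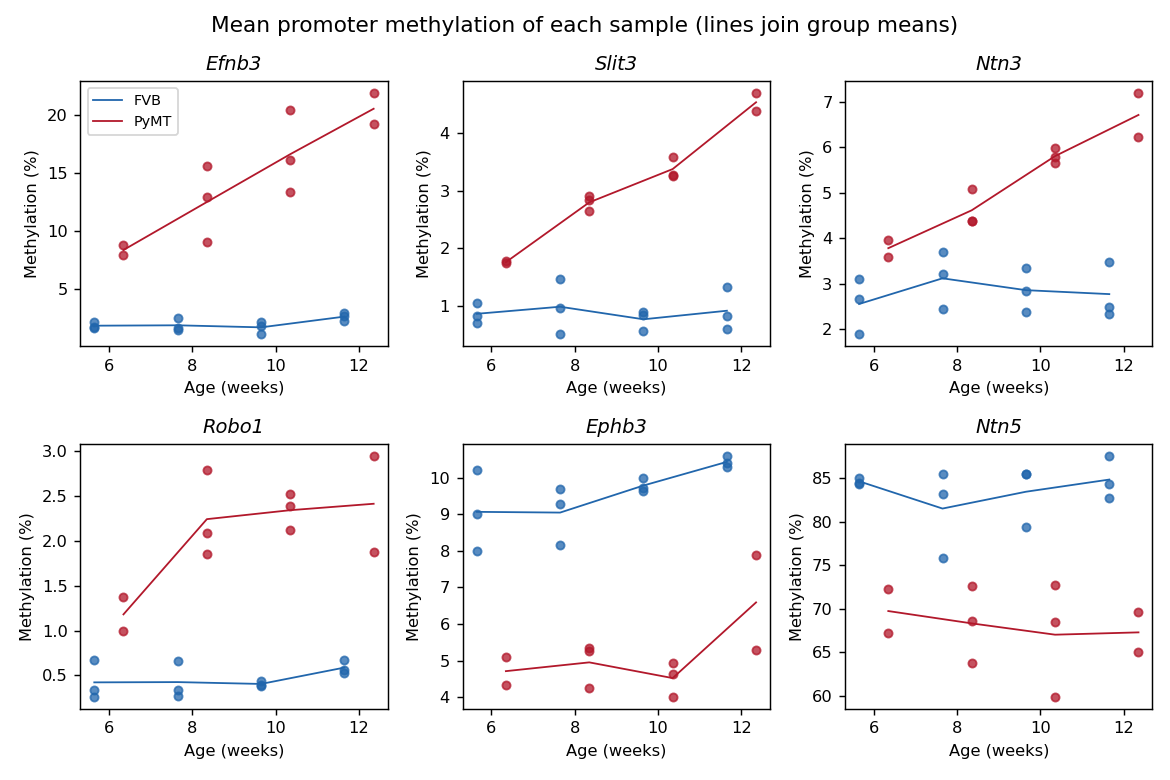
Mean promoter methylation (%) of each sample against age in weeks, for 6 promoters, with PyMT in red and FVB in blue, points set slightly apart by genotype and lines through the group means. Efnb3, Slit3 and Ntn3 climb with age in PyMT and stay level in FVB, Robo1 lies above the controls, and Ephb3 and Ntn5 lie below them at every week.

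Eph receptors and ephrins held both directions, with 7 of 21 promoters higher and 5 lower. The largest gain of any axon guidance promoter was at Efnb3 (chr11:69554092-69560237), which encodes ephrin-B3, a transmembrane ligand known for stopping axons at the spinal midline. Control samples stood at 1.13% to 2.98% (median 1.99%). The PyMT samples were at 8.81% and 7.94% at hyperplasia, at 9.03%, 12.9% and 15.6% at adenoma/MIN, at 20.4%, 13.4% and 16.1% at early carcinoma and at 21.9% and 19.2% at late carcinoma. Every PyMT sample was therefore above every control from the first stage on. The difference over the 4 weeks was 12.5 points (SE 0.781, limma adjusted p = 1.52e-09), with 6.52 points at week 6 (adjusted p = 0.0193) and 17.9 points at week 12 (adjusted p = 6.56e-07).

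All 40 Efnb3 promoter positions lay between 142 bases upstream and 203 bases downstream of the TSS (relative positions −142 to 203). The number called higher was 8 at hyperplasia, 19 at adenoma/MIN, 25 at early carcinoma and 30 at late carcinoma, and 35 were higher in PyMT at every week. The largest single difference was 26.8 points at week 6 and 39.6 points at week 12, while no group mean of the controls exceeded 12.1% at any position. The gain was thus partial at each cytosine and lay on both sides of the TSS. The 36-base upstream block shown above stood at 14.3% to 30.5% in PyMT (median 21.1%) and 1.65% to 6.45% in FVB (median 2.85%). All its PyMT samples lay above all controls, by 18.8 points (SE 0.993, limma adjusted p = 3.39e-10).

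**Figure D4:**
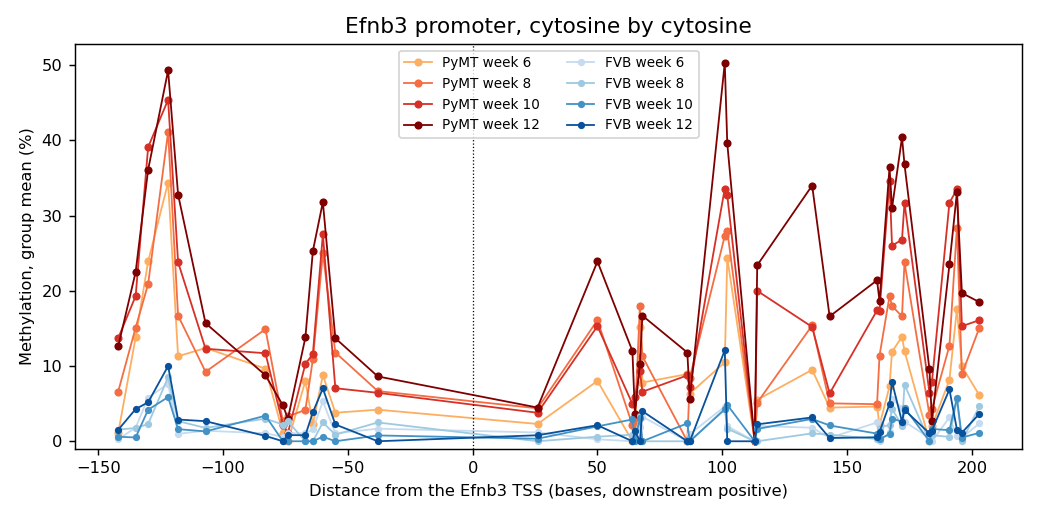
Group mean methylation (%) at each of the 40 cytosines of the Efnb3 promoter against distance from the TSS in bases, for PyMT (warm colors) and FVB (blue) at each week. PyMT levels stand above the controls on both sides of the TSS and most at week 12, while no control mean exceeds 12.1%.

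Ephb3 (chr16:21204795-21223304), which encodes a receptor for ephrin-B ligands, lost promoter methylation. It stood at 4.01% to 7.88% in PyMT (median 5.01%) and 7.99% to 10.6% in FVB (median 9.71%) with no overlap, a difference of −4.39 points (SE 0.337, limma adjusted p = 1.52e-08). The loss sat away from the TSS. A block of 4 positions at chr16:21203561-21203614, centered at −1208 bases from the TSS, fell from a median of 58.4% in FVB to 26.8% in PyMT, and the difference within 500 bases of the TSS was −1.03 points. Ephb2 was 1.67 points lower (difference −1.67, adjusted p = 9.43e-06), with 1.48% to 3.38% in PyMT and 3.32% to 4.72% in FVB, nearly without overlap. Within 500 bases of the TSS the difference was 0.0772 points and did not pass (adjusted p = 0.340). Efna1 (−1.30 points), a ligand anchored in the membrane by a lipid, and the receptor genes Epha2 (−0.523) and Epha4 (−0.303) were also lower. Within 500 bases of the TSS Efna1 (−0.484 points), Epha2 (−0.0452) and Epha4 (0.0496) did not pass. In the 2 kb upstream Efna1 (−1.43 points) and Epha4 (−0.767) passed and Epha2 (−0.197) did not. Epha2 also missed the threshold with predicted transcripts added (limma adjusted p = 0.0747). Of the receptor genes that gained, Epha6 stood at 2.33% to 7.71% in PyMT (median 4.24%) and 0.523% to 2.60% in FVB (median 1.43%), which overlapped slightly, with a difference of 3.27 points (limma adjusted p = 6.14e-06). Epha5, Ephb1 and Epha10 gained 1.42, 1.34 and 1.24 points, and the ligand genes Efna2 and Efnb2 gained 0.771 and 0.278 points. Within 500 bases of the TSS the gains at Epha6 (3.19 points) and Epha10 (1.46 points) still passed. There Epha5 (0.0682 points), Ephb1 (0.330), Efna2 (0.121) and Efnb2 (−0.0203) did not pass.

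For class 3 semaphorins, neuropilins and plexins, 7 of 15 promoters were higher and 3 lower. Sema3b, a secreted semaphorin gene with 4 TSS, had an intermediate level of 49.6% to 64.4% in PyMT (median 54.6%) and 55.7% to 72.8% in FVB (median 61.9%), and the groups overlapped widely. The difference of −6.46 points (SE 1.82, limma adjusted p = 0.0091) was −23.1 points in the 2 kb upstream and 0.620 points (adjusted p = 0.949) within 500 bases of a TSS. Sema3f, its neighbor on chromosome 9, stood at 2.78% to 5.60% in PyMT (median 4.40%) and 1.69% to 2.37% in FVB (median 2.03%), without overlap. Its gain of 2.34 points (limma adjusted p = 8.92e-08) likewise lay upstream (8.63 points in the 2 kb upstream) and did not appear within 500 bases (−0.139 points, adjusted p = 0.126). Sema3a, a repellent ligand gene with 5 positions here, ran from 0.769% to 9.27% in PyMT (median 1.96%) and from 0% to 1.48% in FVB (median 0%). The groups overlapped, and the difference was 2.27 points (limma adjusted p = 0.0194). Among the receptors, Plxna2, Nrp2, Plxnd1 and Plxnc1 were 0.746, 0.719, 0.689 and 0.589 points higher and Plxnb1 0.347 points lower (difference −0.347), each from a control level below 2%, although Plxnc1 was lower in the 2 kb upstream (−0.824 points, limma adjusted p = 0.0308).

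Gene bodies outside the promoters were compared in the same way over 11437 genes. Of 47 axon guidance gene bodies 35 were lower in PyMT (74.5%) and 4 were higher (8.51%), where 46.4% of all gene bodies were lower and 20% higher (limma, adjusted p under 0.05). The median difference was −4.74 points over the axon guidance genes and −1.71 over all, and 23 passed with at least 5 points. Every PyMT sample was below every control at 16 (34.0%, against 19.4% of all gene bodies) and above at 1 (2.13%, against 4.85%). These gene bodies held a median of 40.0 positions against 12.0 over all. Of 30 receptor genes 25 were lower and 1 higher, and of 17 ligand genes 10 were lower and 3 higher.

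Receptor genes led the losses. The Eph receptor gene Epha8 (chr4:136929419-136956816) stood at 45.2% to 54.8% in PyMT (median 48.7%) and 61.9% to 64.7% in FVB (median 63.9%), and Epha4 (chr1:77367185-77515088), whose receptor binds both ephrin classes, at 57.9% to 65.0% (median 61.0%) and 71.7% to 78.5% (median 72.7%). The groups did not overlap in either gene. The differences were −14.2 points (SE 1.0, limma adjusted p = 1.76e-09) and −12.7 points (SE 0.916, adjusted p = 2.37e-09). Robo1 (chr16:72663149-73046100) stood at 69.6% to 74.7% in PyMT and 79.2% to 85.3% in FVB, and Dcc at 66.3% to 77.6% and 79.0% to 83.2%, again without overlap and each with a difference of −10.5 points. In Dcc the difference was −5.62 points at week 6 and −15.1 points at week 12. Smaller sets of positions gave −12.1 points in the plexin gene Plxna2 (5 positions), −10.4 in Sema3g (10), −9.75 in Unc5c (7) and −8.82 in Epha5 (8), of which Sema3g alone had no overlap.

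All 6 Slit and Robo gene bodies were lower while their promoters, at curated start sites, were higher. Slit3 stood at 59.9% to 65.0% in PyMT (median 63.1%) and 69.1% to 71.2% in FVB (median 69.9%), a difference of −7.06 points (SE 0.498, limma adjusted p = 1.90e-09). Slit2, which is methylated much less in its measured body positions, stood at 11.0% to 13.5% (median 12.9%) and 14.2% to 16.9% (median 15.4%), a difference of −2.81 points. Neither gene overlapped between PyMT and FVB. Ephb2 ran from 50.5% to 57.0% in PyMT (median 53.2%) and 56.4% to 60.1% in FVB (median 58.7%), with overlap and a difference of −5.29 points (limma adjusted p = 7.23e-06).

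The 4 gene bodies that rose were Ntn1, Ntn3, Plxnb1 and Sema3f. Ntn1 (chr11:68209364-68386826), the gene of netrin-1, stood at 67.2% to 75.3% in PyMT (median 72.6%) and 65.1% to 68.3% in FVB (median 66.6%). A single PyMT sample, of hyperplasia, reached into the control range, and the difference was 6.05 points (SE 0.802, limma adjusted p = 3.55e-06). Ntn3 rose from 1.19% to 1.86% in FVB to 2.74% to 6.70% in PyMT, with no overlap and a difference of 3.46 points (SE 0.220, adjusted p = 5.82e-10). It is the one gene of the list whose promoter and gene body were both low in controls and both gained. Plxnb1, which encodes a plexin that binds class 4 semaphorins, gained 4.28 points and Sema3f 2.92 points, both with overlap. The loss at the gene body of Sema3b (−6.38 points over 11 positions) turned to a gain of 1.92 points (adjusted p = 0.0318) when predicted transcripts were added. Gene bodies that did not pass included Epha3 (0.0538 points), Plxnb2 (−0.382) and Nrp1 (0.624).

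**Figure D5:**
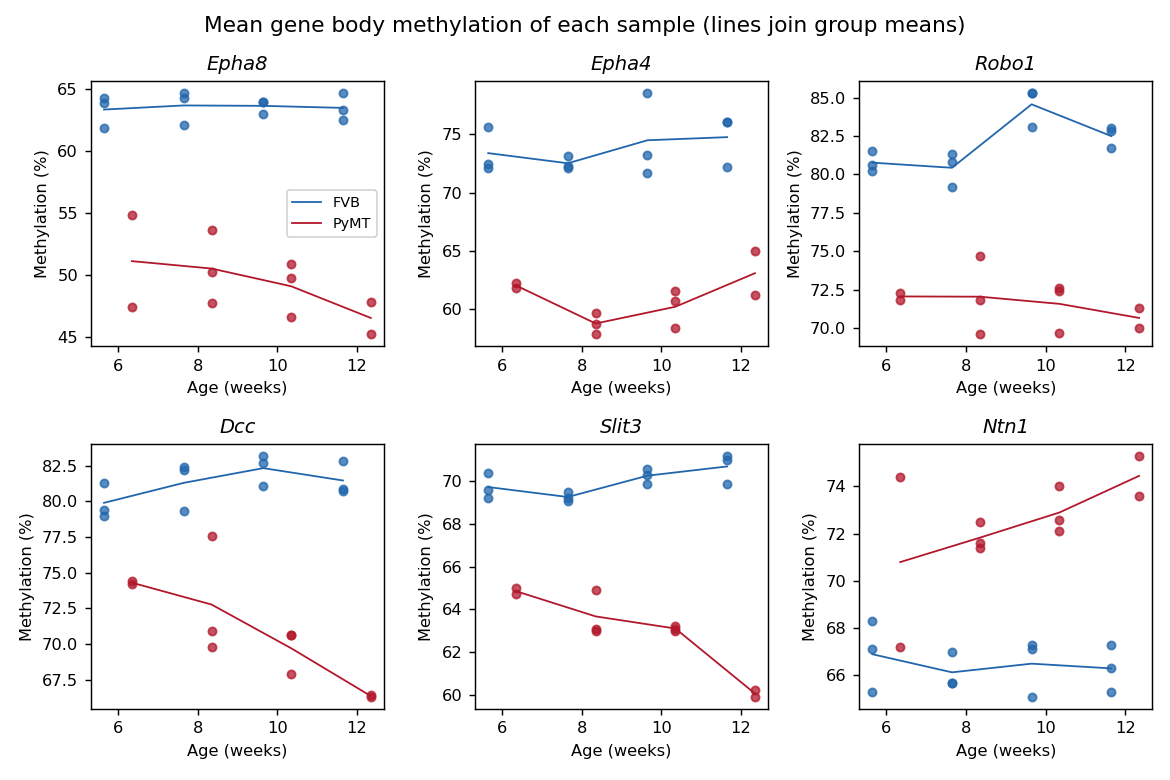
Mean gene body methylation (%) of each sample against age in weeks for 6 genes, with PyMT in red and FVB in blue, points set slightly apart by genotype and lines through the group means. PyMT samples lie below the controls at Epha8, Epha4, Robo1, Dcc and Slit3 and mostly above them at Ntn1, and the gap at Dcc goes from −5.62 points at week 6 to −15.1 points at week 12.

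Blocks located these differences more finely. Of 496 blocks in axon guidance genes 102 were higher (20.6%) and 152 lower (30.6%) in PyMT, where 16.0% and 28.5% of all 94289 blocks were (limma, adjusted p under 0.05). PyMT samples lay all above the controls in 19 (3.83%, against 3.22% of all blocks) and all below in 50 (10.1%, against 8.31%). Blocks were then classed by the curated transcripts of any gene. By place, 45 of 98 blocks in coding exons (45.9%), 89 of 245 in introns (36.3%) and 12 of 105 in untranslated or noncoding exons (11.4%) were lower. Of the blocks of all genes in these places 27.4%, 29.0% and 8.96% were lower. Within 500 bases of a TSS 26 of 114 blocks were higher (22.8%) and 8 lower (7.02%), against 12.7% and 5.20% over all genes. Beyond 2000 bases 46 of 287 were higher (16.0%) and 135 lower (47.0%), against 19.6% and 35.3%. Ephb2 held the most blocks that passed, with 7 higher and 17 lower.

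The largest block losses took a mostly methylated stretch to a mostly unmethylated one. The intron 5 block of Epha4 stood at 54.5% to 83.9% in FVB (median 71.3%) and 10.2% to 52.5% in PyMT (median 18.7%), where the highest sample was one of hyperplasia. The difference was −48.0 points (SE 3.74, limma adjusted p = 2.00e-08), and it was −34.2 points at week 6 and −59.1 at week 12. The block in exon 12 of Nrp2, the gene of a neuropilin co-receptor, stood at 46.5% to 75.6% in FVB (median 69.2%) and 15.1% to 33.5% in PyMT (median 18.3%). It differed by −46.0 points (SE 3.13, limma adjusted p = 4.55e-09), and by −48.3 points at week 6 alone. The groups overlapped in neither block.

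Other blocks behaved alike. Epha2, a receptor gene often studied in epithelial tumors, had a block at 72.4% to 89.8% in FVB (median 83.6%) and 34.7% to 45.1% in PyMT (median 37.3%), a difference of −45.3 points (SE 2.08, limma adjusted p = 9.59e-11). The intron 12 block of Epha4, the Plxnc1 block and the Unc5b block differed by −42.2, −40.9 and −39.9 points. In these 4 blocks no PyMT sample overlapped any control. A block of 20 positions in the last exon of Slit1, at chr19:41600343-41600615, differed by −37.6 points, and 17 of its positions were called lower at all 4 stages. A block in intron 19 of 28 of Robo1, at chr16:72998190-72998245, stood at 27.8% to 67.8% in FVB and 7.36% to 31.6% in PyMT, with overlap and a difference of −31.4 points.

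The largest block gain lay inside Ntn1. Its block in intron 2, 5 positions that lie 96031 bases into the gene, stood at 16.8% to 40.4% in FVB (median 33.4%) and 51.4% to 79.7% in PyMT (median 71.2%). All PyMT samples were above all controls, by 39.3 points (SE 3.03, limma adjusted p = 1.78e-08), with 31.8 points at week 6 and 49.0 at week 12. The exact permutation test within weeks gave 2.50e-05, the smallest p that its 40000 arrangements allow, for 31 of the 37 promoters, gene bodies and blocks named by rule, and 5.00e-05 to 0.00332 for the other 6. Most of these features were picked because they had passed with large differences in the same samples. The exact p-values are not adjusted for that choice and add no separate support.

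The last comparison asked whether the PyMT minus FVB difference changed from the premalignant weeks 6 and 8 to the malignant weeks 10 and 12, tested as an interaction in the same limma fit. The 3 promoters that passed were Efnb3, Ntn3 and Slit3, all with a growing gain (5.77% of 52, against 2.41% of all promoters), and none with a growing loss, against 0.122%. The change was 7.88 points at Efnb3 (limma adjusted p = 0.00998), 2.08 points at Ntn3 (adjusted p = 0.0182) and 1.77 points at Slit3 (adjusted p = 0.00117). In FVB alone none of the 16407 promoters passed between these ages in limma, axon guidance promoters included, of which 1 of 52 had an unadjusted p under 0.05. Among blocks 3 of 496 passed upward (0.605%), near the 0.563% of all blocks, and none downward, against 0.238%. They were the upstream Efnb3 block (9.34 points, limma adjusted p = 0.0379), a block over exon 1 of Efnb3 (7.62 points, adjusted p = 0.0398) and the Slit3 block (1.29 points, adjusted p = 0.0458). Both Efnb3 blocks lay within the 40 positions of its promoter, and the Slit3 block held 27 of the 48 promoter positions. The block calls thus repeat the promoter calls on the same cytosines. Of the 47 gene bodies 1 passed downward (2.13%), Robo2 with −4.42 points (limma adjusted p = 0.0486), and none upward, against 0.734% and 0.586% of all gene bodies. Dcc with −6.79 points (adjusted p = 0.0637) and Slit3 with −3.69 points (adjusted p = 0.0793) did not pass. Leaving out each of the 22 libraries in turn left the Efnb3 and Slit3 promoter calls past the threshold every time, but with 2 kb upstream alone none of the 3 promoters passed (adjusted p = 0.0929 for Efnb3, 0.105 for Slit3 and 0.325 for Ntn3). Ntn3 also missed it when weighted by coverage (adjusted p = 0.198) and with a coverage minimum of 20 (adjusted p = 0.121). The Ntn3 promoter failed without PyMT week 12 replicate 1 (adjusted p = 0.0567) and without PyMT week 6 replicate 2 (adjusted p = 0.0513). The upstream Efnb3 block, the exon 1 block and the Slit3 block passed in 8, 6 and 4 of these 22 fits and Robo2 in 2, so these calls rest on the full set of samples. On the logit scale no change of this kind passed at promoters or blocks, and the Efnb3 promoter then had an adjusted p of 0.383, so these calls concern differences in points.

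A further list of 50 axon guidance genes held other semaphorins, further guidance ligands and receptors, and intracellular partners of the receptors. Of its 44 promoters 16 were higher and 3 lower, and of its 40 gene bodies 11 were higher and 19 lower (limma, adjusted p under 0.05), where 17.0%, 17.0%, 20% and 46.4% of all were. The collapsin response mediator family, which carries semaphorin signals to the cytoskeleton, was chosen as an example after its values were seen. Its promoters gained 5.64 points at Dpysl4, 4.39 at Crmp1, 2.74 at Dpysl3 and 0.827 at Dpysl2, while Dpysl5 differed by −0.236 points and did not pass (limma adjusted p = 0.565). The gene bodies of Dpysl4, Dpysl3 and Dpysl5 differed by −20.1, −13.7 and −6.28 points, whereas that of Dpysl2 was 5.82 points higher. The Crmp1 gene body was not tested. Outside this family, the largest gene body gains were 13.9 points at Efnb1 and 11.2 at Sema6c. The largest losses there were −13.2 points at Sema4f and −13.0 at Nck2.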

How the data were processed

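DNA methylation was measured by ERRBS in 10 PyMT and 12 FVB samples. Per the submitters' processing notes, reads were aligned with Bismark to mm10. The authors deposited, for each sample, read counts (coverage) with no normalization and the percent of methylated and unmethylated reads at CpG cytosines with a coverage of 10 reads or more, strands kept apart. Methylated counts were recovered here as coverage times percent, rounded. Positions covered in all 22 samples were assigned to curated RefSeq transcripts. The members and lists, and the tests, were chosen with earlier results of these data known.

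Stages were compared position by position with a logistic likelihood ratio test. Promoters, gene bodies and blocks, with at least 3 positions each, were compared as mean percent per sample in limma with 8 groups of genotype and week and a variance trend. The difference over all weeks was the mean of 4 weekly differences. Named values also had a two-sided exact permutation test within weeks. Scripts were tested on simulated data. Values are given for the 12 promoters, 8 gene bodies and 10 blocks (at most 2 a gene) with the largest differences that passed, for up to 5 promoters and 5 blocks with the largest change between stages, and for Slit2, Slit3 and Ephb2, which the study names. Other genes are named as examples of their group. Markers of 5 cell types and 50 further axon guidance genes were listed likewise.

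Same-numbered PyMT and FVB samples of a week did not deviate together (10 pairs, r from −0.0780 to 0.0593), so numbers were not taken as pairs. Alternatives were a coverage minimum of 20 reads, 25 points, summed strands, predicted transcripts, other promoter windows and block rules, coverage weights, no variance trend, the logit scale, an overdispersion correction, a replicate block and leaving out each library. No expression data were analysed here. Models were fitted in R 4.3.3 with limma 3.58.1. The rest ran in Python 3.11.15 with SciPy 1.17.1, pandas 2.3.3, NumPy 2.4.6 and matplotlib 3.10.9.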

Additional observations from a re-analysis of the deposited data

Results flagged for a closer look

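These promoters, blocks and 1 gene body had a PyMT minus FVB difference that changed from the premalignant to the malignant weeks by a test of the change itself, in limma. The change was 7.88 points at the Efnb3 promoter, 2.08 points at the Ntn3 promoter and 1.77 points at the Slit3 promoter. In blocks it was 9.34 points at chr11:69560344-69560379 and 7.62 points at chr11:69560034-69560320, both of Efnb3, and 1.29 points at chr11:35121129-35121352, upstream of Slit3. These blocks hold cytosines of the same Efnb3 and Slit3 promoters and are not separate results. At the Robo2 gene body the change was −4.42 points. None of them passed on the logit scale, and none of the 3 promoters passed with 2 kb upstream alone.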

How the results depend on the processing

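Of the comparisons' counts under the alternatives 513 stayed within 1.5 times the reported count and 65 did not. When any 1 library was left out, no promoter, gene body or block named by rule changed direction, nor did Robo2. None of the 34 differences over all weeks lost its call, whereas the 7 changes between stages lost 70 of their 154 calls. With a difference of at least 25 points the DMCs were 42 higher and 193 lower at hyperplasia, 48 and 207 at adenoma/MIN, 69 and 266 at early carcinoma and 74 and 320 at late carcinoma. With the overdispersion correction they were 44 and 164, 75 and 194, 118 and 334, and 118 and 359. Leaving out 1 library gave 73 to 156 higher and 270 to 394 lower at hyperplasia.

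Promoters over all weeks were 15 higher and 3 lower with 500 bases on each side of the TSS and 8 higher with 2 kb upstream. Slit2, Ephb2, Sema3b, Sema3f, Epha4 and Efnb2 turned sign within 500 bases, without passing. With 2 kb upstream Plxnc1 turned and passed (−0.824 points). The higher promoters at hyperplasia were 2 on the logit scale, 3 with a coverage minimum of 20 and 0 to 7 without 1 library, and the lower ones 2 to 5. At adenoma/MIN 8 to 14 were higher and 2 to 4 lower without 1 library. At late carcinoma 3 were lower on the logit scale and 2 to 5 without 1 library. Changes between stages numbered 0 on the logit scale for promoters and blocks, and without 1 library 2 to 5 promoters upward, 0 to 6 blocks upward and 0 to 3 downward. Blocks of at least 5 positions left 77 lower.

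With the replicate block the higher promoters were 0 at hyperplasia and 8 at adenoma/MIN, the lower ones 1 at hyperplasia and 2 at late carcinoma, and the changes between stages 0 for promoters and blocks, with limma adjusted p from 0.0812 to 0.0910 at the Efnb3, Ntn3 and Slit3 promoters, 0.171 to 0.195 at the 3 blocks and 0.215 at the Robo2 gene body. Over all weeks the replicate block gave 22 higher and 8 lower promoters, and Sema3a then missed the threshold (limma adjusted p = 0.0652).

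FVB means below 1% rest on few methylated reads and lie near, in places below, the conversion floor, and depth limits differences there. Exact tests within weeks share the same 22 samples.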
